A study of Saccharomyces cerevisiae with 18 samples.

Results

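Non-capped, polyadenylated RNA molecules were compared with capped ones in yeast growing on glucose. Each molecule had been recorded as a pair of genome positions, its 5' end and its 3' end, by transcript isoform sequencing (TIF-Seq), which joins both ends of a cDNA in a circle and reads across the junction. Each pair was assigned to the coding sequence (build R64) that it overlapped most on its own strand, and a gene was a member if both columns together held 50 or more reads. Of 6002 annotated coding sequences, 4178 were members, 1372 had 1 to 49 reads and 452 had 0. The 32 members with 50 or 51 reads had a median non-capped share of 39.6%, and the 45 coding sequences with 48 or 49 reads had one of 30.6%.

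All 18 libraries of the series came from wild-type cells of the diploid strain SLS045 (S288c background), harvested in mid-log phase at an optical density of 1. The glucose cultures grew in YPAD, which held 1% glucose, and the galactose cultures in YPGal, with 1% galactose. The non-capped glucose column is 1 library of culture 2. The capped glucose column sums 6 libraries, 3 preparations of each of 2 cultures, and 2 of the 6 held added Bacillus subtilis transcripts. In galactose, the non-capped column is 1 library of culture 3 and the capped column sums 6 libraries of 4 cultures. Because libraries were summed, the spread between replicates is unknown, and the text gives no p-values. Intervals are at the 95% level and cover counting error alone.

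The non-capped glucose column held 1317650 reads on 109777 distinct pairs of ends, and the capped column 6290819 reads on 601597 pairs. A non-capped pair carried 12.0 reads on average and a median of 4. Reads of 1 pair can be copies of 1 molecule, so intervals over reads are too narrow, and main results are also given with pairs or positions counted once. A member had a median of 9 distinct non-capped pairs, and 3103 members had fewer than 20. GAL1, the galactokinase gene, had 4 capped and 1 non-capped reads in glucose and 34003 and 24464 in galactose, which matches the labelled media. RPL3, TDH3 and GCN4 were all measured in both glucose columns.

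In yeast, decay of most mRNAs begins with shortening of the poly(A) tail and removal of the cap by the Dcp1-Dcp2 enzyme, after which the exonuclease Xrn1 digests the body from its 5' end. Xrn1 can follow the last translating ribosome, and its step is then set by the ribosome's movement from codon to codon. A molecule without a cap but with a poly(A) tail can be such an intermediate, a product of an internal cut or a fragment made during preparation.

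Most used ends of the marker genes are printed first, because they show where each kind of molecule starts. Each line holds 30 bases of the transcript strand, and the capital is the base at the 5' end. The RPL3 windows are chr15:444655-444684 and chr15:445457-445486 (plus strand), those of TDH3 are chr7:883829-883858 and chr7:883799-883828 (minus strand), and that of the GCN4 non-capped end is chr5:139181-139210 (minus strand).
RPL3 capped: tagaacaacAcagttactacaacaatcaat
RPL3 non-capped: gcccacgttAtgtggagtgttgccagagct
TDH3 capped: taaaacaccAagaacttagtttcgaataaa
TDH3 non-capped: cacacataaAcaaacaaaatggttagagtt
GCN4 non-capped: tcgttaagaAgtcacatcatgttggaaagg

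RPL3 (YOR063W), which encodes a protein of the large ribosomal subunit, had 57323 capped and 39607 non-capped reads, the latter on 1462 distinct pairs. Its most used capped end lay 22 nt before the start codon and held 26029 capped reads but 1 non-capped read. The most used non-capped end was base 781 of the coding sequence, with 987 non-capped reads, 1249 in the galactose library and 7 capped reads, and base 782 followed with 704 and 779 non-capped reads in the same order of media. These neighbouring positions were therefore the top positions of both non-capped libraries and were rare in the capped column. Of all RPL3 reads, 82.9% of the capped and 1.46% of the non-capped ones began before the start codon.

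TDH3 (YGR192C) encodes the major glyceraldehyde-3-phosphate dehydrogenase and has near-identical copies, so its counts are uncertain. It had 374343 capped reads, of which 337791 (90.2%) began 39 nt before the start codon, where 32 of its 43005 non-capped reads began. Its most used non-capped end lay 9 nt before the start codon, with 1568 reads in glucose and 438 in galactose, and 9.95% of its non-capped glucose reads began before the start codon. The next most used non-capped positions were bases 510 (893 reads), 492 (661) and 503 (583). No read of the non-capped libraries or the capped glucose column began in the bins from 360 to 440 nt after the start codon.

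GCN4 (YEL009C), the activator of amino acid synthesis genes, has a long leader with short upstream reading frames that set its translation. It had 26266 capped and 16743 non-capped reads. The most used non-capped ends were bases 563 (341 reads in glucose, 30 in galactose) and 203 (313 and 348). A larger share of its non-capped reads than in the other 2 marker genes began before the start codon, 20.9%, against 91.3% of its capped reads. Its most used capped end lay 571 nt before the start codon, against 22 nt in RPL3 and 39 nt in TDH3. The shares were not set against leader length. In the 50 nt before each of the 4 stop codons of the upstream frames, 205, 265, 230 and 279 non-capped reads began, of which 0, 10, 0 and 0 lay exactly 17 nt before the stop codon.

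**Figure D1:**
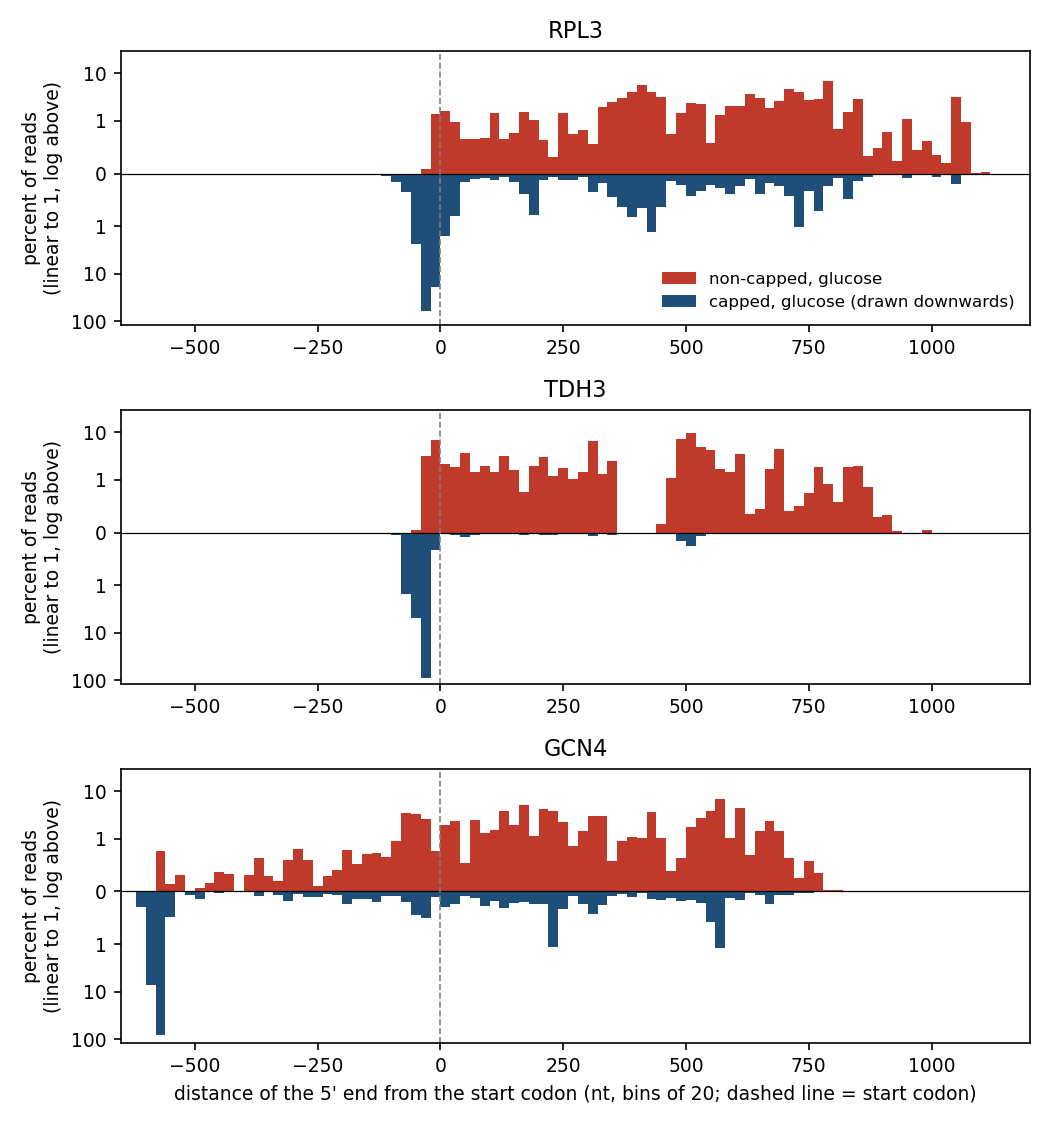
Percent of each gene's reads by the distance of the 5' end from the start codon, in bins of 20 nt (x axis, nt; y axis linear to 1% and logarithmic beyond), with non-capped glucose reads drawn upwards and capped glucose reads downwards. Capped reads peak before the start codon (82.9% of RPL3, 91.3% of GCN4), and non-capped reads are spread over the coding sequence.

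Across all members, 94.3% of non-capped reads began inside the coding sequence and 5.72% before the start codon. In the capped column 6.19% began inside and 93.8% before the start codon. With each distinct pair counted once, the inside share was 94.7% for non-capped and 33.7% for capped pairs. Capped pairs that began inside thus held fewer reads on average than those that began before the start codon. Non-capped ends were least frequent in the first 2 of 10 equal segments of the coding sequence (5.43% and 5.15% of reads) and most frequent in the eighth (14.8%), with 14.4% in the seventh, 13.5% in the ninth and 6.88% in the last. With genes weighted equally the ninth was highest (16.7%), and with pairs counted once the eighth (14.9%) and ninth (14.5%). Of non-capped reads, 2.073% began within 10 nt of the gene's most used capped end, against 74.0% of capped reads. That end was taken from the capped column itself, which raises the capped share by construction. The galactose library gave 92.7% inside, 2.55% near the capped end and 14.5% in the eighth segment.

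**Figure D2:**
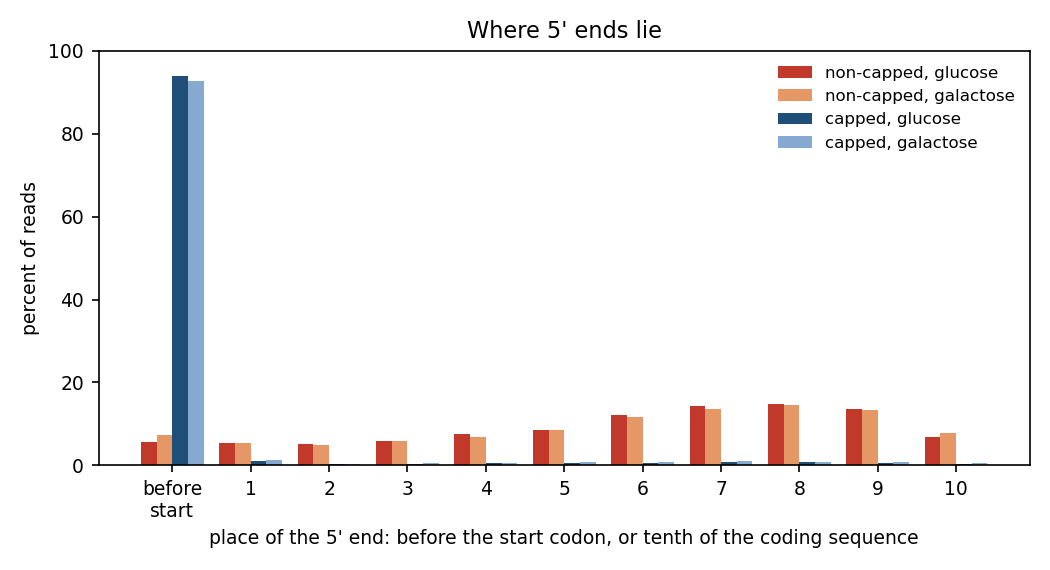
Percent of reads (y axis) whose 5' end lay before the start codon or in each of 10 equal segments of the coding sequence (x axis), for the non-capped and capped columns of both media. Capped reads stand before the start codon, and non-capped reads rise from the second segment (5.15% in glucose) to the eighth (14.8%).

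The non-capped molecules were short at their 5' side and nearly complete at their 3' side. Their median span was 525 nt (quartiles 366 and 753), against 887 nt (669 and 1135) for capped molecules. The 3' end lay after the stop codon in 97.4% of non-capped and 99.2% of capped reads, and 5.61% of non-capped reads covered the whole coding sequence, against 93.2% of capped reads. In the 3547 genes with 20 or more reads in each column, the most used 3' ends of both columns were identical in 50.7% of genes and within 10 nt in 68.0%. With 100 or more reads in each column the latter share was 79.9% of 1553 genes. For comparison, the capped columns of both media had most used 3' ends within 10 nt in 84.7% of 4399 genes with 20 or more reads in each and in 91.2% of 2329 genes with 100 or more. Outside coding sequences, molecules starting within 300 nt after a stop codon on the same strand made up 1.31% of non-capped and 0.119% of capped reads.

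The genes whose non-capped molecules began most often near the capped end fell into 2 kinds. In TMA7, RIB5, which encodes riboflavin synthase, and RDL1 the capped end lay before the start codon, and 44.9%, 51.6% and 38.9% of their 283, 279 and 329 non-capped reads began within 10 nt of it. In ERG9, squalene synthase, and MNN10, a Golgi mannosyltransferase, the most used capped end itself lay inside the coding sequence, at bases 585 and 885, and 57.9% and 49.7% of non-capped reads began within 10 nt of it. At the other extreme, 0 non-capped reads began near the capped end in ADH1 (5707 non-capped reads), PDA1 (4991), PDC1 (4022), CYS3 (3551) and SUB2 (3501). ADH1 and PDC1 act in ethanol fermentation, PDA1 is a subunit of pyruvate dehydrogenase, CYS3 makes cysteine and SUB2 is an RNA helicase of mRNA export. By the same measure, whose reference end comes from the capped reads, 95.3% of the capped reads of ADH1 began there. The values were 85.4% for PDC1 and 81.7% for PDA1.

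Upstream ends also differed in their bases. Among the most used capped ends before the start codon, 1 per gene in 5135 genes, the end base was A in 78.9%, and the base before it was C in 54.0% or T in 41.1%. Yeast transcription commonly starts at an A after a C or T. Among the most used non-capped upstream ends of 1191 genes the end base was A in 48.5%, and the base before it was A in 42.6%, T in 24.3% and C in 18.1%. Non-capped ends inside coding sequences were A at 40.2% of 65433 positions and had an A before them at 38.9%, where A makes up 32.7% of all coding bases.

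Positions of non-capped ends were related to codons. Of 69282 distinct non-capped end positions in coding sequences without introns, 37.6% (interval 37.2 to 38.0) were the second base of a codon, 31.3% the first base and 31.1% the third. Weighted by reads the share of the second base was 38.2%. Given the bases at these ends and where each base stands in codons of the same genes, 34.03% would be second bases. The share exceeded the coding share for ends at each base: 39.5% against 36.2% for A, 41.9% against 38.8% for C, 25.4% against 22.9% for G and 38.7% against 34% for T. Of 286 genes with 50 or more positions, the second base was the commonest in 176 (61.5%), and it was 37.7% on the plus and 37.5% on the minus strand.

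In the other columns the share of the second base varied. In the galactose non-capped library 36.7% (36.1 to 37.3) of 26655 positions were second bases. The few capped molecules that began inside coding sequences had 40.9% (40.6 to 41.1) of 138975 positions at the second base, and 42.2% in the long-enriched glucose libraries. In capped galactose molecules it was 35.1% of positions but 32.4% of reads, where the first base had 33.5% and the third 34.1%. Without the first and last 100 nt of coding sequences it was 34.7% of those reads, against 31.6% and 33.7%. In glucose the second base was thus the commonest among capped internal ends too. By positions it had a larger share there than among non-capped ends. Over all inside reads it did not, with 37.7% of capped and 38.2% of non-capped reads. Without the first and last 100 nt it was larger by reads too, with 40.8% of capped and 38.5% of non-capped reads. Along the coding sequence it was 34.9% in the first segment and between 36.3% and 38.7% in the others for non-capped ends. For capped ends it was 29.3% in the first segment and reached 43.5% in the eighth.

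The position 17 nt before the stop codon, also the second base of a codon, was used in more genes than its neighbours. Genes with many non-capped reads there, taken from genes without introns or near-identical copies, are shown, with the end base and the stop codon in capitals. Their windows are chr15:254589-254618 (RPP2A, plus strand), chr13:547209-547238 (RIM11, plus), chr14:126804-126833 (SEC2, minus), chr3:158537-158566 (YCR023C, minus) and chr1:184449-184478 (UIP3, plus).
RPP2A: acgacatggGtttcggtttattcgacTAAg
RIM11: aaaaaaagcTatatccgaagtctaagTAAt
SEC2: atttcgatgAtgcccaggaacagcaaTAAa
YCR023C: gcttaagtaAccaacgctgtaccacaTGAg
UIP3: agcaataccCagaggttgatttgcctTAGg

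These ends held 66 non-capped reads in RPP2A, a stalk protein of the large ribosomal subunit, 31 in RIM11, a protein kinase, and 24 in SEC2, an exchange factor for a secretory Rab protein. YCR023C had 18 and UIP3 15. In RPP2A, RIM11, SEC2, YCR023C and UIP3 the same positions held 1, 0, 0, 2 and 0 capped glucose reads. Each held 0 non-capped reads in galactose. Over 610 genes without introns that had a non-capped end in the 50 nt before the stop codon, 48 had one exactly 17 nt before it, where positions 50 to 21 nt before it were used in a median of 26 genes (range 15 to 45). By reads there was no peak, with 395 reads at that position and up to 606 at others. The count of genes is 1.85 times the median, and 2.06 times when genes called lower (described further on) were left out. The capped column had 212 of 1029 genes at that position against a median of 38 (5.58 times). The galactose non-capped library had 10 of 304 genes against a median of 10.5 (0.952 times), so the peak was not seen in that library. The capped galactose column had 127 of 1164 genes against a median of 58 (2.19 times). The long-enriched glucose column had 78 of 512 against 15 (5.20 times). In the non-capped glucose column the share of genes with an end there was 13.0% (8.76 to 18.9) of 169 genes that stop with TGA, 8.46% (4.79 to 14.5) of 130 with TAG and 15 of 300 with TAA (interval 3.05% to 8.08%). In the capped column it lay between 20.1% and 21.9% for the 3 stop codons.

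**Figure D3:**
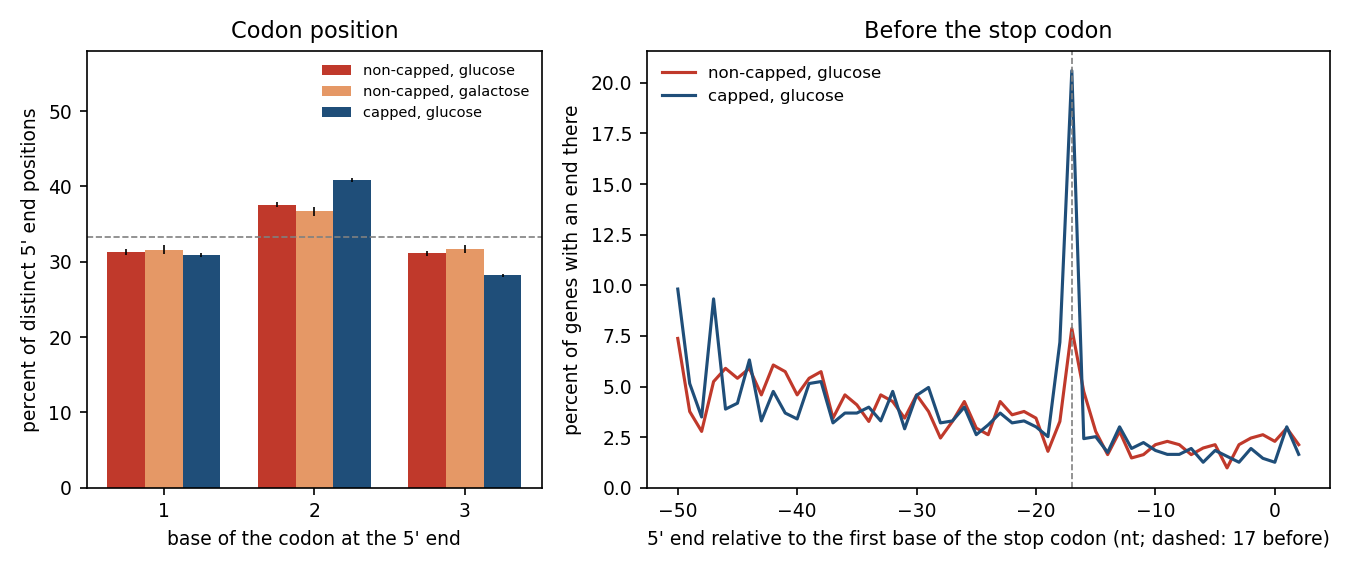
Left, percent of distinct 5' end positions inside coding sequences (y axis) at each base of the codon (x axis), with 95% Wilson intervals and a dashed line at equal shares. Right, percent of genes with a 5' end at each position before the stop codon (x axis, nt), with a dashed line 17 nt before it, where 48 of 610 genes had a non-capped and 212 of 1029 a capped end.

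Codons at the same distance from ends inside coding sequences were examined next. For ends at the second base of a codon, the codon that begins 17 nt downstream was compared with codons 47 to 62 nt downstream of the same ends; this distance was chosen after the stop codon profile had been seen. Over 25427 non-capped ends, the proline codon CCG was 2.08 times (1.79 to 2.42) as frequent at that distance, and all proline codons together 1.26 times (1.20 to 1.33). The arginine codon CGA, which is decoded slowly in yeast, was at 1.28 times (0.95 to 1.73), with an interval that includes 1. At 14 and 20 nt, the neighbouring codons, proline codons stood at 1.01 and 0.990. Keeping only ends with 2 or more reads, the proline value was 1.26 at 17 nt.

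Capped internal ends in glucose had larger values, 2.62 (2.42 to 2.84) for CCG and 1.79 (1.74 to 1.84) for proline over 55628 ends. The galactose non-capped library had no proline excess at 17 nt (1.00, interval 0.914 to 1.104, over 9505 ends), where CCG stood at 1.34 (0.96 to 1.86) and CGA at 2.23 (1.48 to 3.34).

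**Figure D4:**
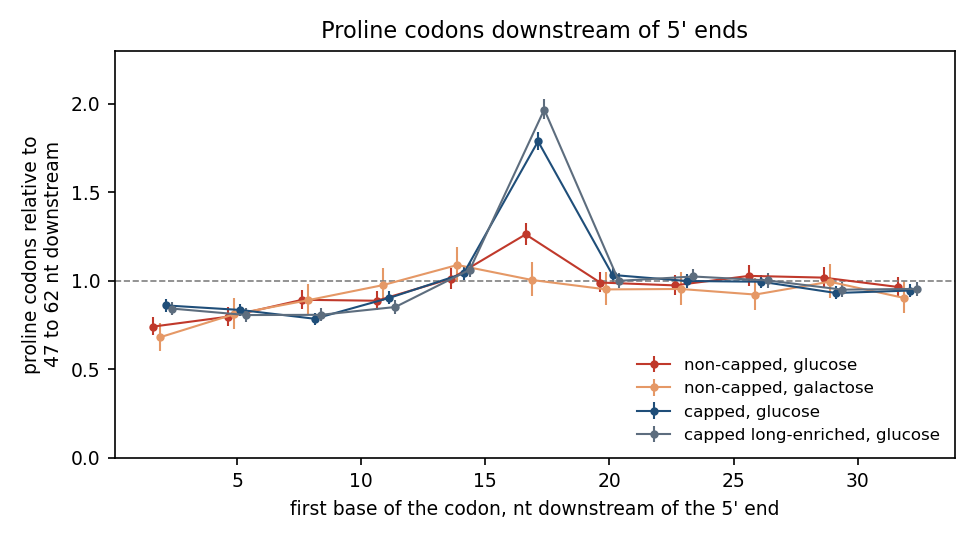
Frequency of proline codons relative to codons 47 to 62 nt downstream (y axis) by the distance of the codon's first base from a 5' end at the second base of a codon (x axis, nt), with 95% Wilson intervals. At 17 nt the value is 1.26 for non-capped and 1.79 for capped glucose ends and 1.00 for non-capped galactose ends.

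Some genes had much of their non-capped signal at 1 position inside the coding sequence. The windows of the 4 with the most non-capped reads among the 8 named by rule are given because so many reads share 1 end there, with the end base in capitals. They are chr5:102186-102215 (SNU13, plus strand), chr6:55668-55697 (YPT1, minus), chr12:231851-231880 (TRX1, minus) and chr8:485420-485449 (ERG9, plus).
SNU13: ccatctagaGttgctttaggtagagcttgt
YPT1: acggcgtgaAgatgtggctgcaagagattg
TRX1: aacaataccCacaagctgatttctataaat
ERG9: tttgattgtCattgccaagtttgccaacga

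SNU13, a protein of small nucleolar and spliceosomal particles, had 1725 of 4097 non-capped reads (42.1%) at base 253, with 916 (31.6%) in galactose. YPT1, a Rab protein of early secretion, had 630 of 1349 (46.7%) at base 299, with 385 (41.1%) in galactose. Both positions were thus used heavily in both non-capped libraries. TRX1, thioredoxin, had 353 of 548 (64.4%) at base 143, with 68 (25.2%) in galactose, and ERG9 179 of 311 (57.6%) at base 585. The same positions held 1201, 328, 438 and 78 capped reads in SNU13, YPT1, TRX1 and ERG9. The other 4 of the 8 rested on 1 to 6 distinct pairs at the position: SEC72 at base 361 (55.2%), SDH8 at base 94 (53.9%), INM2 at base 629 (46.7%) and YGR079W at base 628 (42.7%, 1 pair).

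Most positions were used in 1 library only. Of 78013 non-capped positions inside coding sequences in glucose, 6711 were also used in galactose, which is 8.60% of the glucose and 22.5% of the 29790 galactose positions, and they held 19.8% of the glucose reads. In 125 genes with 1000 or more non-capped reads inside the coding sequence in each medium, the most used position was identical in 10 and within 1 nt in 16, and the top glucose position had at least 1 galactose read in 73. With the capped glucose column, 18318 positions were shared, 23.5% of the non-capped and 12.1% of the capped ones. In 28 genes with 1000 or more inside reads in both glucose columns, the most used position was identical in 11. In 26 of them the top non-capped position had at least 1 capped read. With 200 or more reads, the top position was identical in 20 of 680 genes for galactose and 50 of 252 for the capped column. The sets of genes differ between these comparisons.

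The share of non-capped reads was 17.1% over all members together and 38.7% in the median gene (quartiles 16.5% and 60.0%, range 0% to 100%). The columns differ in depth, so each gene's ratio was scaled by the trimmed mean of M values, and its log2 is 0 for a gene that follows most others. The ratio does not tell more non-capped molecules from fewer capped ones. A gene was called when the scaled ratio was at least 2-fold and its interval excluded 1. Of 4178 members, 1238 were called higher among non-capped molecules (29.6%) and 1392 lower (33.3%). In galactose 1195 of 4304 were called higher (27.8%) and 1865 lower (43.3%). Of 3922 genes measured in both media, 1070 were called higher and 1369 lower in glucose, and 1033 and 1719 in galactose. Of these genes 620 were higher in both, 1022 lower in both and 242 called opposite ways. In 2673 genes with 20 or more reads in each of the 4 columns, the median absolute difference between the log2 ratios of both media was 0.78. RPL3 and GCN4 stood near the middle, at 0.13 and 0.01, and TDH3 at -2.46.

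The ratio went with coding length. In the shortest decile of members (78 to 438 nt) the median non-capped share was 8.31% and 360 of 419 genes were called lower. In the longest decile (2784 to 14733 nt) it was 69.5% and 340 of 417 were called higher. Over all 4178 members Spearman's rho between the log2 ratio and coding length was 0.71, as a description across genes. Between the log2 ratio and capped reads, which are also the ratio's denominator, rho was -0.54. Genes and groups were not set against genes of like capped reads. Median spans of non-capped molecules rose from 374 nt in the shortest decile to 609 nt in the fifth and lay between 594 and 624 nt from there on. The median distance of their 5' ends to the stop codon rose through all deciles, from 223.5 to 540 nt. Capped spans reached a median of 1818 nt in the eighth decile and fell to 976 and 747 nt in the last 2, where only 40.0% and 28.5% of capped reads began before the start codon. In libraries enriched for long molecules 83.8% and 46.6% did. With the long-enriched column as the capped one, rho with coding length was -0.06 over 4118 genes, with 1082 genes called higher and 1153 lower.

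**Figure D5:**
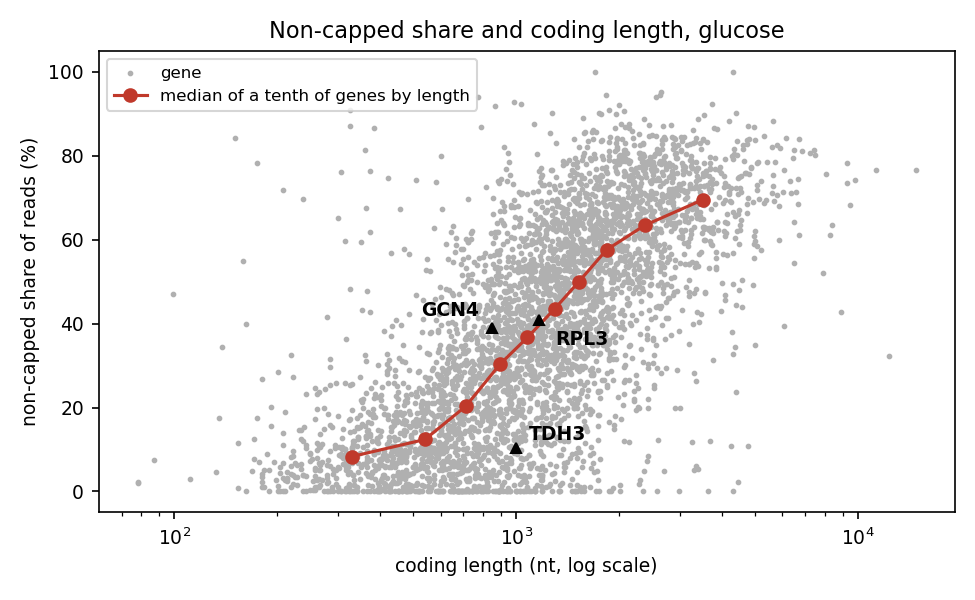
Non-capped share of a gene's reads (y axis, percent) by coding length (x axis, nt, log scale) for 4178 genes (grey), with the median of each decile of genes by length in red. The medians rise from 8.31% to 69.5%, and TDH3 lies below the genes of its length.

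The 10 highest ratios among genes with 500 or more reads all belonged to coding sequences of 2280 nt or longer. GEA2, an exchange factor for Arf proteins, had 66 capped and 613 non-capped reads, a log2 ratio of 3.87 (3.51 to 4.26) and 3.76 in galactose. KAP123, a nuclear import receptor, had 372 and 1991 reads (3.08) and 2.56 in galactose. FAS1 and ACC1, enzymes of fatty acid synthesis, stood at 3.08 and 3.04 in glucose and at 2.89 and 2.65 in galactose. The others were MLP1, NUP188, OSH2, SCT1, UTP10 and RPA135, from 2.97 to 3.58. All 10 were also above 0 in galactose, the lowest being UTP10, a ribosome assembly factor, at 0.57.

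The 10 lowest were short, except PGK1. RPL30, a ribosomal protein, had 52575 capped and 456 non-capped reads on 53 pairs, a log2 ratio of -6.19 (-6.33 to -6.06) and -5.50 in galactose. VMA11, a subunit of the vacuolar proton pump, had 13785 and 196 (-5.47), and TOM20, an import receptor of mitochondria, had 6299 and 80 (-5.63). HTB1, histone H2B, rested on 28 non-capped reads in 1 pair (-5.62), and PGK1, phosphoglycerate kinase, on 69 reads in 4 pairs beside 3961 capped reads (-5.17). Against the long-enriched column PGK1 turned to 2.39 and HTB1 to 0.70, so their direction depends on the capped libraries. YPR170W-B, YDR524C-B, YCR024C-B, ATP16 and RPL25 completed the set, from -5.88 to -5.14.

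Each gene was also set against the median of its decile by length, a comparison chosen after the relation with length had been seen. MTC7 then had the highest value, 5.02, with 135 capped and 398 non-capped reads, of which 80.7% began before the start codon. MRH1, a membrane protein, had 1355 and 2865 reads on 237 pairs (2.26), and RPL43B, a ribosomal protein gene of 279 nt, had 2297 and 1637 (2.97). Below genes of their length were PGK1 (-5.46), ASN1 (-4.69), an asparagine synthetase, RTF1 (-4.21), a subunit of the Paf1 complex, MIA40 (-3.87), an import factor of mitochondria, TCP1 (-3.75), a chaperonin subunit, and PDI1 (-3.68), protein disulfide isomerase. PDI1 and TCP1 turned above 0 before centring, to 1.30 and 1.06, when only spans of 300 to 1500 nt were counted.

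Gene groups are described by counts beside the background of 29.6% higher and 33.3% lower. Among 135 of 137 cytosolic ribosomal protein genes, 1 was called higher and 119 lower, with a median log2 ratio of -2.69 at a median coding length of 435 nt, and 94 of the 135 have a near-identical copy. RPS2 had 207308 capped and 21861 non-capped reads (-2.59) and RPS3 211439 and 11335 (-3.56). The group's median was -0.32 when set against genes of like length, -0.16 with pairs counted once and 0.01 against the long-enriched column, where 30 were called higher and 21 lower. RPS2 and RPS3 turned to 2.18 and 1.65 with pairs counted once. RPS2 had 207308 capped reads on 1509 pairs and 21861 non-capped reads on 994, so its direction depended on whether reads or pairs were counted.

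Mitochondrial ribosomal proteins had 4 of 71 members called higher and 43 lower (median -1.48, and -0.28 against genes of like length). The median turned to 0.14 under scaling by total reads and to 0.13 against the long-enriched column. MRPS16 had 5815 capped and 367 non-capped reads (-3.32). In the respiratory chain and ATP synthase, which yeast uses little on glucose, 0 of 34 genes were called higher and 28 lower (median -2.67, and -0.46 against genes of like length). Their median remained below 0 with pairs counted once (-1.72), against the long-enriched column (-0.83) and under scaling by total reads (-1.05). ATP18 had 6319 and 143 reads (-4.80), and ATP5 had 5436 and 1172 (-1.55). All 8 core histone genes were called lower (median -2.89, and -0.09 against genes of like length), and 6 of them have a near-identical copy. With pairs counted once 1 was called lower (median -0.30), and against the long-enriched column 0 were lower and 1 higher (-0.21). HHF2, histone H4, had 24735 and 2137 reads (-2.87).

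Counted by reads, genes of glycolysis and ethanol fermentation were low for their length. Of 19 members, 4 were called higher and 11 lower, with a median of -1.34, and of -1.46 against genes of like length, at a median coding length of 1314 nt. With pairs counted once the direction turned, with 12 of 17 genes called higher and 1 lower and a median of 1.31. The median was 0.28 under scaling by total reads and -0.39 against the long-enriched column. GPM1, phosphoglycerate mutase, had 132799 capped and 28185 non-capped reads (-1.58) and stood at 2.22 with pairs counted once, and TDH3 at 2.57. Cell wall mannoproteins had 0 of 18 genes higher and 14 lower (median -2.02, and -1.09 against genes of like length). With pairs counted once 1 of 15 was higher and 2 lower (-0.12), and against the long-enriched column 0 of 17 were higher and 4 lower (-0.40). CCW12 had 187315 and 5227 reads (-4.50), and SED1 had 32024 and 8914 (-1.18).

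Other groups were mixed before coding length was allowed for. Ribosome biogenesis factors had 14 of 44 members higher and 10 lower (median 0.01), with GAR1 at -1.08 and SNU13 at -1.48. Translation factors had 6 of 35 higher and 14 lower (median -0.84, turning to 0.78 under scaling by total reads and to 0.17 with pairs counted once, and 0.15 in galactose), with HYP2, the factor eIF5A, at -2.78 and TEF1, the elongation factor eEF1A, at -3.71; both have near-identical copies. The proteasome had 3 of 33 higher and 16 lower (median -0.85, turning to 0.77 under scaling by total reads, to 0.37 against the long-enriched column and to 0.08 with pairs counted once), with RPN10 at -3.93 and RPN13 at -1.74. Heat shock chaperones had 6 of 23 higher and 5 lower (0.31, turning to -0.49 against the long-enriched column), with SSA2 at -6.22 on 8 non-capped pairs, and amino acid synthesis genes 9 of 43 each way (-0.20, turning to 0.63 with pairs counted once and to 1.42 under scaling by total reads), with ILV5 at -1.33. Against genes of like length the medians were 0.11 for ribosome biogenesis (11 higher, 7 lower) and -0.63 for translation factors (1 and 15). They were -0.27 for the proteasome (2 and 9), -0.24 for chaperones (3 and 7) and -0.40 for amino acid synthesis (5 and 11). Of all members 18.6% were higher and 23.7% lower by that measure.

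Genes tied to decay itself gave few measured members. Of 34 genes of the mRNA decay machinery 30 were measured, 12 higher and 9 lower (median 0.68, and -1.43 in galactose), among them LSM1 at -0.27 and LSM3 at -3.06, subunits of the Lsm rings. The median coding length of these 30 genes was 1669.5 nt. Against genes of like length 7 were higher and 3 lower (median 0.25), beside 18.6% and 23.7% of all members. Of 12 substrates of nonsense-mediated decay 7 were measured, 3 higher and 2 lower (median 0.99), against 2 higher and 4 lower in galactose, where the 4 (EST3, REV7, STN1 and UPF3) had 0 non-capped reads. The glucose median of these substrates was 0.51 against genes of like length and 0.11 over 8 genes with a minimum of 20 reads. With pairs counted once it was -0.13 over 2 genes. CPA1, whose upstream reading frame triggers that pathway, had 836 capped and 1050 non-capped reads (0.99, and 1.69 in galactose). Genes with regulatory upstream reading frames had 4 of 11 higher and 1 lower. Of 6 transcripts known as stable 0 were higher and 4 lower (median -2.28), but with pairs counted once 4 were higher and 1 lower (1.35), and against the long-enriched column 2 each way (-0.02). Of 11 known as unstable 4 were measured, 0 higher and 1 lower (median -0.07). Their median was -1.19 against genes of like length, with 0 higher and 2 lower. It was 1.77, with 3 higher and 1 lower, when only capped molecules that start upstream were counted. Of 5 targets of endonucleases 1 was higher and 3 lower (median -1.81), but with pairs counted once 2 were higher and 1 lower (0.02). HAC1, whose mRNA is cut by Ire1, had 509 capped reads and 0 non-capped reads in glucose, which allows a share of up to 0.722%, and 589 and 170 in galactose; it was chosen after its values were seen.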

How the data were processed

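The deposited table holds read counts, unnormalized, in 1 row per combination of both transcript ends; per the file headers the authors added up libraries of the same type. CASAVA, the aligner Novoalign 2.07.10 and build R64 come from the submitters' processing notes. Whether duplicate reads were removed was not stated there. All count columns were mapped to groups and 0 were left out. The table covers chromosomes 1 to 16, and genes of the mitochondrial genome are not analysed here.

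Pairs were assigned to coding sequences of the RefSeq R64 annotation, which also gave all sequences. Near-identical copies were defined by blastn 2.17.0 matches with 90% identity or more across 80% or more of a spliced coding sequence, found for 384 coding sequences. Ratios were scaled with edgeR 4.0.16 (R 4.3.3), with DESeq2 1.42.0 size factors and total reads as alternatives, and used a pseudocount of 0.5 reads. Intervals of ratios and gene shares are exact (binomial), those of codon and stop codon shares Wilson. The edgeR quasi-likelihood test planned for replicates could not be run on summed columns. The call rule was tried on simulated counts that held counting error alone. That trial cannot show how calls behave where many reads are copies of 1 molecule. Tables were handled with pandas 2.3.3 and numpy 2.4.6 in Python 3.11.15, sequences with Biopython 1.88, intervals with scipy 1.17.1 and plots with matplotlib 3.10.9.

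Genes were named by rule: the 3 markers; the 10 highest and 10 lowest ratios among genes with 500 or more reads, at least 20 in each column, no near-identical copy and an interval excluding 1; up to 3 members of each list by total reads; and, with 200 or more non-capped reads, the 5 highest and lowest by ends near the capped end and the 8 with the largest share at 1 inside position. The genes named by 17 nt before the stop codon and by length-centred ratio were chosen after values were seen. A gene named by the list rule and some end sequences are not reported here. Members and lists were chosen with earlier results of these data known.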

Additional observations from a re-analysis of the deposited data

Results flagged for a closer look

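YGR079W was called in opposite directions in the 2 media, with a log2 ratio of 1.23 in glucose and -2.68 in galactose. It had 148 capped and 220 non-capped reads in glucose, the latter on 14 pairs, and 135 and 8 in galactose. Of the 220, 94 began at base 628, all in the same pair of ends, where galactose had 0. In all, 242 genes were called opposite ways in the 2 media. The difference between media was not tested.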

How the results depend on the processing

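No paired analysis was possible because the deposited columns are sums over libraries; for the same reason no replicate block was fitted and no single library was left out. Of 1238 genes called higher and 1392 called lower, counts were 746 and 799 with at least 200 reads, 311 and 893 with molecules covering the whole coding sequence, 521 and 601 with distinct pairs counted once, 2536 and 665 under scaling by total reads, which moved the median of all genes by 1.62 (log2), and 331 and 317 in genes with 20 or more distinct non-capped pairs. Centring by coding length gave 776 and 991. The last 2 settings, capped molecules that start upstream only, stop codon ends without genes called lower and codons at ends with 2 or more reads were chosen after seeing the data. Of the 2630 calls, 33 turned and 723 were lost with pairs counted once, 176 and 1223 against the long-enriched column, 151 and 689 with the whole coding sequence covered, and 75 and 1347 with centring by length. In the same order of settings, a further 928, 301, 1212 and 0 calls were of genes no longer measured. The calls that stayed the same were 946, 930, 578 and 1208. The percent at the second base of a codon was 37.6 with positions counted once and 38.5 without the first and last 100 nt, against 38.2. The other alternatives moved total counts by under 1.5 times, but the long-enriched column left only 930 calls the same.

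Log2 ratios of named genes turned sign as follows, and the cause was not tested. With distinct pairs they became 0.73 for ATP5, 0.56 for CCW12, 0.68 for GAR1, 2.22 for GPM1, 0.65 for HHF2, 1.60 for HYP2, 1.29 for ILV5, 0.0065 for MIA40, 2.18 for RPS2, 1.65 for RPS3, 0.46 for RTF1, 1.82 for SED1, 0.81 for SNU13, 2.57 for TDH3 and 0.87 for TEF1. Against the long-enriched column they became 0.17 for ATP5, 1.34 for GAR1, 0.76 for GPM1, 0.32 for HHF2, 0.70 for HTB1, 0.25 for LSM3, 2.39 for PGK1, 0.17 for RPN13, 0.39 for SED1, 0.69 for SNU13 and 0.39 for TDH3. Under scaling by total reads they became 0.067 for ATP5, 0.54 for GAR1, 0.044 for GPM1, 0.29 for ILV5, 0.44 for SED1 and 0.14 for SNU13. With spans of 300 to 1500 nt they became 1.30 for PDI1, 1.06 for TCP1 and 2.45 for TEF1, and with the whole coding sequence covered 0.79 for HHF2, 0.28 for HYP2, 0.19 for ILV5, 1.63 for SNU13 and -4.16 for YKL033W-A. Centring by coding length gave 1.08 for GAR1, 0.42 for RPN13 and 1.33 for SNU13. Of the other values of named genes 348 moved within their counting interval and 485 beyond it, and no called value among these changed sign.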
